A study of Mus musculus with 2 samples.

Results

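Immediate early genes are genes that a cell transcribes within minutes of a stimulus, from regulators that are already present and without new protein synthesis. Membrane depolarisation, growth factors and stress act through calcium- and ERK-dependent kinases on the transcription factors CREB and SRF, which sit at the promoters of these genes. Most of the products are transcription factors (the Fos, Jun, Egr, Nr4a and Klf families) that drive later waves of transcription, and others switch the response off again (Dusp phosphatases, Zfp36). In sensory neurons Fos and its relatives are widely used as marks of recent activity, and in dorsal root ganglia the satellite glia, Schwann cells, macrophages, endothelial cells and fibroblasts express many of the same genes.

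A list of 34 such genes was followed in RNA sequencing of mouse dorsal root ganglia, the clusters of sensory neuron cell bodies beside the spinal cord. The members were taken by gene symbol from the 23282 rows of the count files, and each of the 34 matched a row. The mice compared were WT animals given Acetone/Ether/Water (AEW), a chemical dry-skin treatment, on 5 days in a row, with ganglia taken on day 6, and WT animals given Water. RNA of 6 mice per group was pooled and is read here as 1 library per group. Strain, sex, age, the area of skin treated and the level of the ganglia were not stated in those labels. With 1 pool per group no difference below has a replicate check, and treatment cannot be told apart from animals, dissection or library preparation.

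The AEW library held 14376228 counts and the Water library 9333882. Levels are given as scaled CPM, which is the count over the library size, times 1000000, after scaling of the library sizes with TMM (a trimmed mean of log ratios), and differences as the AEW over Water ratio with an exact 95% counting interval. The interval covers counting error only and compares the libraries, not the treatments. A gene was measured when it had at least 20 counts over both libraries, and it was called lower or higher in AEW when the ratio passed 1.5-fold and the interval excluded 1. The labels name neurons as the cell type, and the pan-neuronal markers Rbfox3 (213.6 scaled CPM in AEW and 64.5 in Water), Tubb3, Uchl1 and Snap25 were present. Markers of macrophages, neutrophils, satellite glia, Schwann cells, fibroblasts, muscle and blood were present in both libraries as well, so the libraries describe whole ganglia with attached tissue. In such bulk samples, fewer cells of a type and less RNA per cell cannot be told apart.

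Of the 34 members, 30 were measured. A total of 7 were called lower in AEW, where 14.9% of all 14854 measured genes were lower, and 0 were called higher, where 17.3% of all measured genes were. The 7 were Nr4a1, Nr4a2, Nr4a3, Fosb, Fosl2, Klf2 and Csrnp1. They make up 23.3% of the measured members, and the other 23 were called neither. The median log2 ratio of the measured members was -0.26, against 0.03 for all measured genes, and 22 of the 30 had a ratio below 1. All members together took 0.0934% (95% interval 0.0918 to 0.0950) of the AEW counts and 0.107% (0.105 to 0.109) of the Water counts. Without the Nr4a family, a split made after the values were seen, 4 of 27 members (14.8%) were lower, close to the share among all genes, and 0 were higher.

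Without regard to size, the counting interval lay below 1 for 13 of 30 members, against 28.9% of all measured genes, and above 1 for 1 member, against 32% of all measured genes. The range ran from a log2 ratio of -2.92 for Nr4a3 to 1.10 for Arc. At 2-fold, 2 members were lower, Nr4a3 and Fosb, which is 6.67% of the members against 6.85% of all measured genes. When a gene also had to lie over 3 scaled median absolute deviations from genes of the same level, 1 member stayed called, Nr4a3, among 0.491% of all measured genes called lower.

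**Figure D1:**
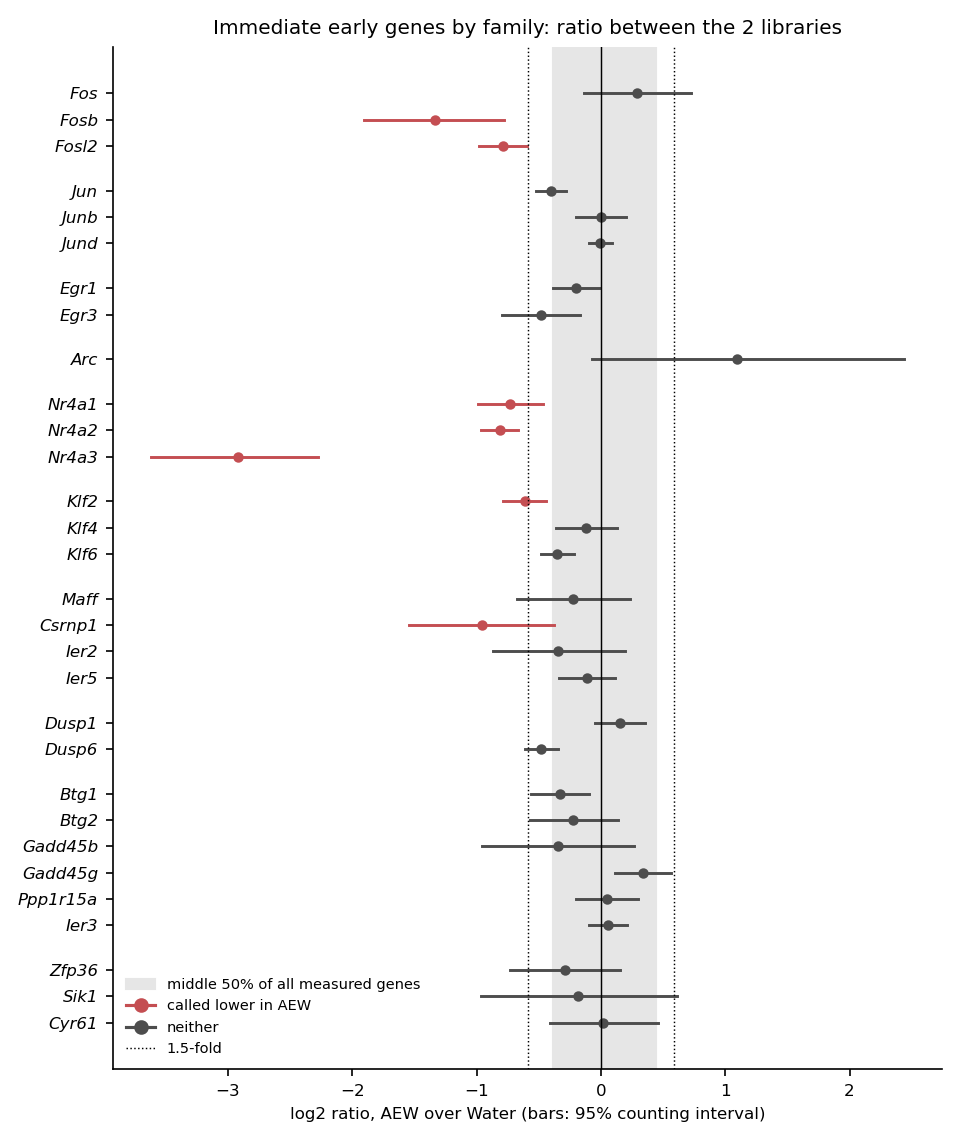
Log2 ratio of AEW over Water (x axis) for the 30 measured immediate early genes, grouped by family. Points are ratios, bars are 95% counting intervals, red marks the 7 genes called lower, dotted lines are 1.5-fold and the grey band holds the middle 50% of all measured genes. Nr4a3 lies far to the left at -2.92, and Arc, the gene farthest to the right, has the widest interval.

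The Nr4a genes encode orphan nuclear receptors (Nur77, Nurr1 and Nor1) that act as transcription factors without a known physiological ligand and are induced through CREB in many cell types. All 3 were called lower. Nr4a3 (ENSMUSG00000028341.9, chromosome 4, 48045153 to 48086447, plus strand, GRCm38) had 24 counts (1.62 scaled CPM) in AEW and 111 counts (12.3 scaled CPM) in Water, a level 7.57-fold lower in AEW (4.84 to 12.3). Its ratio was the 31st lowest of the 14854 measured genes. Nr4a2 (ENSMUSG00000026826.13, chromosome 2, 57106830 to 57124003, minus strand) had 724 counts (48.9 scaled CPM) in AEW and 778 counts (85.9 scaled CPM) in Water and was 1.76-fold lower (1.59 to 1.95), a call lost after correction for the GC content of the last 500 bases (log2 ratio -0.55). Nr4a1 (ENSMUSG00000023034.7, chromosome 15, 101254269 to 101274795, plus strand) had 246 counts (16.6 scaled CPM) in AEW and 249 counts (27.5 scaled CPM) in Water and was 1.66-fold lower (1.38 to 1.98). The deeper AEW library thus held fewer counts of each of the 3 genes than the Water library did.

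Nr4a3 stood apart within its family. It made up 2.41% (1.55 to 3.57) of the Nr4a counts in AEW and 9.75% (8.09 to 11.6) in Water. Such a share needs no scaling of the libraries, and the ratio of Nr4a2 to Nr4a3 counts was 4.30 times (2.71 to 7.08) as high in AEW as in Water. Nr4a1 and Nr4a2 kept nearly the same proportion to each other, with 0.340 Nr4a1 counts per Nr4a2 count in AEW and 0.320 in Water, a ratio of 1.06 (0.862 to 1.31).

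The promoters of the 3 genes are shown as the 250 bases before the RefSeq start site on GRCm38.p6. Capitals mark the CRE core TGACG, the shared part of the sites that CREB binds, or its reverse complement CGTCA.
Nr4a1 (chr15:101266596-101266845, plus strand): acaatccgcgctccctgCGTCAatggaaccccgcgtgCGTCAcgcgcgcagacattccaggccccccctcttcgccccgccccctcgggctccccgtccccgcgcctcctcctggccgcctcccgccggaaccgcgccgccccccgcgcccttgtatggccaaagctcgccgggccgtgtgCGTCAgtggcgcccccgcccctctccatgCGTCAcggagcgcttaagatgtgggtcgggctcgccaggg
Nr4a2 (chr2:57124004-57124253, minus strand): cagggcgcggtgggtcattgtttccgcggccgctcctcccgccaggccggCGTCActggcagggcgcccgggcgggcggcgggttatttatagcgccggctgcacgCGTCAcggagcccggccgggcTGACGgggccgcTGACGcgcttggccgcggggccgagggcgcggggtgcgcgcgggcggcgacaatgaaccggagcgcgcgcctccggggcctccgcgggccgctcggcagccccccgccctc
Nr4a3 (chr4:48045055-48045304, plus strand): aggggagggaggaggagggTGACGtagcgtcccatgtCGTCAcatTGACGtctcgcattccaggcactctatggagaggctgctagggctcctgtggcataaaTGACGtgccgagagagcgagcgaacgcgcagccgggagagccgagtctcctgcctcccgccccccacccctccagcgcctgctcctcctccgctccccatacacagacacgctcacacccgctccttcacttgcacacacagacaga
Each of the 3 windows holds 4 CRE cores. In Nr4a3 they lie between 231 and 143 bases before the start, whereas Nr4a1 has a pair within the last 69 bases. Of 27025 genes with a window, 0.163% hold at least 4 cores and 19.8% hold at least 1. The cut of 4 is the count in these same 3 windows, and no link between the cores and the lower levels was tested. A match is a description of the letters, not evidence of binding.

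Fos family proteins pair with Jun proteins to form the AP-1 transcription factor, and Fos itself is the classic marker of neuronal activity. The family was split. Fosb (ENSMUSG00000003545.3, chromosome 7, 19302696 to 19310051, minus strand), whose splice form deltaFosB is known to accumulate with repeated stimulation, had 46 counts (3.10 scaled CPM) in AEW and 71 counts (7.84 scaled CPM) in Water and was 2.53-fold lower (1.72 to 3.75). Fosl2 (ENSMUSG00000029135.10, chromosome 5, 32135801 to 32157842, plus strand), which encodes Fra-2, had 439 counts (29.6 scaled CPM) in AEW and 463 counts (51.1 scaled CPM) in Water and was 1.73-fold lower (1.51 to 1.97). Fos (ENSMUSG00000021250.13, chromosome 12, 85473890 to 85477273, plus strand) had 138 counts (9.31 scaled CPM) in AEW and 69 counts (7.62 scaled CPM) in Water. Its ratio of 1.22 (0.909 to 1.66) was called neither, with an interval that included 1. Fosl1, which encodes Fra-1, had 1 count in AEW and 7 in Water and was not measured; its ratio of 0.0873 has an interval of 0.00194 to 0.679.

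Within the family, Fos made up 22.1% (18.9 to 25.6) of the counts in AEW and 11.3% (8.91 to 14.1) in Water. The ratio of Fos to Fosb counts was 3.08 times (1.88 to 5.08) as high in AEW as in Water, and that of Fos to Fosl2 2.11 times (1.52 to 2.94). The Fosb to Fosl2 ratio was 0.684 times (0.450 to 1.03) the Water value, an interval that includes 1. The windows before the starts of these genes are shown for comparison with those of the Nr4a genes.
Fosb (chr7:19310046-19310295, minus strand): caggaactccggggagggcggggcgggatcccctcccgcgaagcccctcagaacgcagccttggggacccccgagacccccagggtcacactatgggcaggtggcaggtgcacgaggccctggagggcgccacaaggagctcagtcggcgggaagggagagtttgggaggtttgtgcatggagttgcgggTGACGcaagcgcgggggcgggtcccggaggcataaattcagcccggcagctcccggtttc
Fosl2 (chr5:32136222-32136471, plus strand): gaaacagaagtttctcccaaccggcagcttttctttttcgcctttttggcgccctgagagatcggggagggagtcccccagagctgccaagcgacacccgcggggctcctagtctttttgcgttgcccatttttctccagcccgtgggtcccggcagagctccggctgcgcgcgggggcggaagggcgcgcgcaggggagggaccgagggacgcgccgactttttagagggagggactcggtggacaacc
Fos (chr12:85473640-85473889, plus strand): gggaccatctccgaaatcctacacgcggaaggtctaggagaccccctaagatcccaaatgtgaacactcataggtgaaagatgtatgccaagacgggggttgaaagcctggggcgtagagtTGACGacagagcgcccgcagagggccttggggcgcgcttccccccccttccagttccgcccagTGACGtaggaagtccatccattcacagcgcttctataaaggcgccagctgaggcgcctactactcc
Fosb holds 1 core, Fosl2 0 and Fos 2. The core of Fos nearest to the start begins 66 bases before it, followed by a TATAAA motif that begins 33 bases before the start.

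The Jun genes encode the partners of Fos in AP-1. Jund, which is often expressed at a steady level, had 2317 counts (156.3 scaled CPM) in AEW and 1418 counts (156.6 scaled CPM) in Water, a ratio of 0.998 (0.934 to 1.07). Junb had 542 counts in AEW and 331 in Water, with a ratio near 1 (0.871 to 1.15). Jun, also known for its rise in sensory neurons after nerve injury, had 1227 counts (82.8 scaled CPM) in AEW and 989 counts (109.2 scaled CPM) in Water. Its ratio of 0.758 (0.697 to 0.825) was under 1 but short of 1.5-fold, and Jun counts per Jund count were 0.759 times (0.682 to 0.846) the Water value. In GENCODE M21 Junb overlaps Prdx2 on the opposite strand, Dusp1 overlaps Ergic1 and Ppp1r15a overlaps Tulp2. Whether counting used strand is not stated in the labels, so reads in the stretches that these pairs share cannot be told apart.

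**Figure D2:**
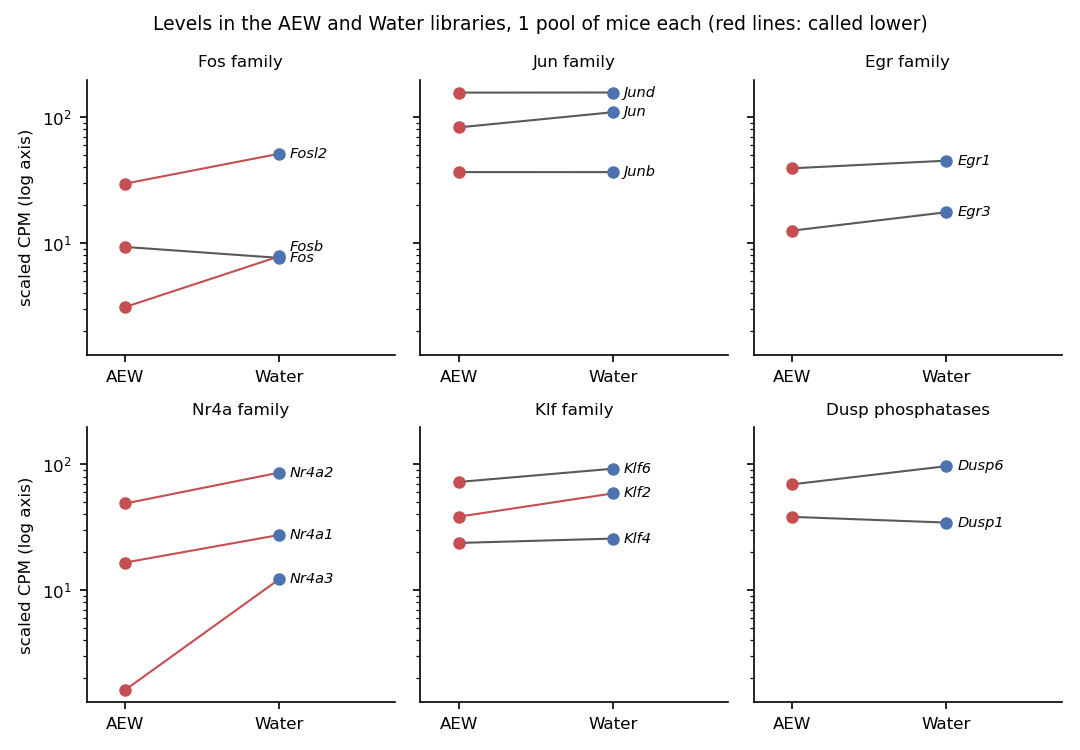
Scaled CPM (log axis) of the measured members of 6 families in the AEW library (left, red points) and the Water library (right, blue points), with lines joining the values of a gene. Red lines are genes called lower. All 3 Nr4a lines climb towards Water, that of Nr4a3 most steeply, while Jund and Junb are level and the line of Fos crosses that of Fosb.

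The Egr genes encode zinc finger transcription factors that bind GC-rich sites and follow ERK activity. Egr1 had 581 counts (39.2 scaled CPM) in AEW and 408 counts (45.1 scaled CPM) in Water, a ratio of 0.870 (0.765 to 0.990). Egr3, needed for muscle spindle development, had 186 counts (12.6 scaled CPM) in AEW and 159 counts (17.6 scaled CPM) in Water, a ratio of 0.715 (0.575 to 0.889). Both were called neither. Egr4 had 2 counts in AEW and 0 in Water, under the limit of detection in both.

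Arc, a protein of the synapse, and Npas4, a transcription factor that responds to calcium entry, are the members most tied to neurons. Arc had 28 counts (1.89 scaled CPM) in AEW and 8 counts (0.884 scaled CPM) in Water. Its ratio of 2.14 had an interval of 0.950 to 5.43, so a difference was not detectable at this depth, and it was called higher only under total count scaling, where the log2 ratio was 1.18. Npas4 had 0 counts in both libraries, which allows up to 0.202 scaled CPM in AEW and 0.331 in Water.

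Klf2, Klf4 and Klf6 encode Krüppel-like zinc finger factors, and Klf2 is known for its expression in endothelial cells under flow. Klf2 (ENSMUSG00000055148.7, chromosome 8, 72319033 to 72321656, plus strand) had 569 counts (38.4 scaled CPM) in AEW and 532 counts (58.8 scaled CPM) in Water and was 1.53-fold lower (1.36 to 1.73). This lies just inside the threshold, and Klf2 was not called under total count scaling (log2 ratio -0.53) or with the AEW counts thinned to the Water total. Klf6 had 1073 counts in AEW and 835 in Water, a ratio of 0.785 (0.717 to 0.860). Klf4 had 352 counts in AEW and 233 in Water, a ratio of 0.923 (0.780 to 1.09). Klf2 counts per Klf4 count were 0.708 times (0.575 to 0.872) the Water value.

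Among the other transcription regulators, Csrnp1, a cysteine- and serine-rich nuclear protein, had 48 counts (3.24 scaled CPM) in AEW and 57 counts (6.30 scaled CPM) in Water and was 1.94-fold lower (1.30 to 2.92). Its annotated span (ENSMUSG00000032515.8, chromosome 9, 119971163 to 119984658, minus strand) lies inside that of Cx3cr1, the fractalkine receptor gene of macrophages (119901616 to 120069879, same strand). Cx3cr1 had 374 counts in AEW and 440 in Water, a ratio of 0.519 (0.451 to 0.597) next to 0.514 (0.343 to 0.769) for Csrnp1. The treatment of reads in shared spans is not stated in the labels. Maff, a small Maf protein, had a ratio of 0.857 (0.627 to 1.18) at 101 counts in AEW and 72 in Water. Ier2 stood at 0.789 (0.547 to 1.14), with 71 counts in AEW and 55 in Water. Ier5 stood at 0.926 (0.791 to 1.08), with 406 counts in AEW and 268 in Water.

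The Dusp genes encode phosphatases that switch off MAP kinases, and neither of the 2 measured was called. Dusp1, the phosphatase MKP-1 that inactivates p38 and JNK and is also induced by glucocorticoids, had 567 counts (38.3 scaled CPM) in AEW and 312 counts (34.5 scaled CPM) in Water, a ratio of 1.11 (0.965 to 1.28). Dusp6, the phosphatase MKP-3 that inactivates ERK, had 1028 counts (69.4 scaled CPM) in AEW and 875 counts (96.6 scaled CPM) in Water, a ratio of 0.718 (0.655 to 0.786), just outside the threshold. Dusp1 counts per Dusp6 count were 1.55 times (1.31 to 1.83) as high in AEW as in Water. Dusp5 had 0 counts in both libraries, the same limit as for Npas4. The window before the start of Dusp1 is shown because it has 3 CRE cores, of which a pair overlaps in the full CRE TGACGTCA.
Dusp1 (chr17:26508473-26508722, minus strand): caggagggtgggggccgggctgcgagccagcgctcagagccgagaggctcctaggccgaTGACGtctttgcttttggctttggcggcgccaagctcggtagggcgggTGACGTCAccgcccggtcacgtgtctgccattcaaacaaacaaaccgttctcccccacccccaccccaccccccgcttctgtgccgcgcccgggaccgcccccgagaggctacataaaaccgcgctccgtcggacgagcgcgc

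The genes grouped here as brakes on growth or on stress responses had ratios on both sides of 1, and none of the 6 was called. Gadd45g, a stress-response gene, had 509 counts (34.3 scaled CPM) in AEW and 246 counts (27.2 scaled CPM) in Water. Its ratio of 1.26 (1.08 to 1.48) was the only one among the measured members with an interval above 1. Its relative Gadd45b had a ratio of 0.786 (0.515 to 1.21) at 54 counts in AEW and 42 in Water. Btg1 and Btg2, antiproliferative proteins, had ratios of 0.796 (0.679 to 0.934) and 0.858 (0.672 to 1.10). Ppp1r15a, which encodes the phosphatase subunit GADD34 that restores translation after stress, had a ratio of 1.03 (0.871 to 1.23), and Ier3 a ratio of 1.04 (0.938 to 1.15) at 994 counts in AEW and 584 in Water.

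The remaining effectors were also called neither. Zfp36, which encodes tristetraprolin and speeds the decay of AU-rich mRNAs, had 103 counts in AEW and 77 in Water, a ratio of 0.817 (0.602 to 1.11). Sik1, a kinase that restrains CREB coactivators, had 36 counts in AEW and 25 in Water, a ratio of 0.880 (0.514 to 1.53). Cyr61, a matrix protein also named Ccn1, had 121 counts in AEW and 73 in Water, a ratio of 1.01 (0.751 to 1.37). The intervals of all 3 included 1.

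**Figure D3:**
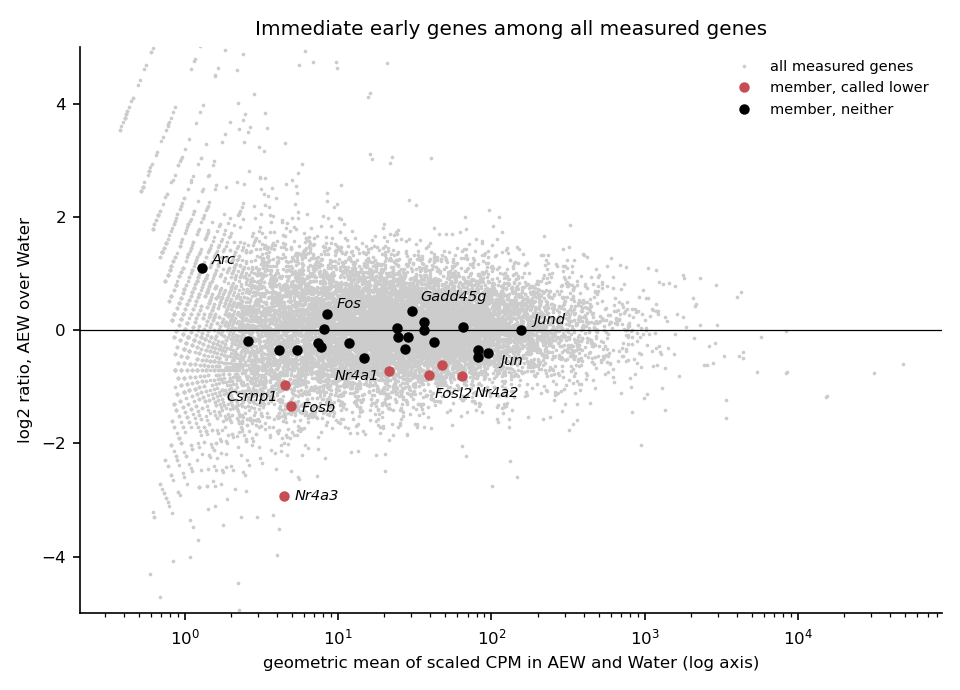
Log2 ratio of AEW over Water (y axis) against the geometric mean of scaled CPM in both libraries (x axis, log) for all measured genes (grey) and the members (red, called lower, and black, neither). Most members lie inside the grey cloud and under the line at 0, and Nr4a3 lies below it at -2.92. A further 71 genes lie beyond the y axis, and genes with 0 counts in a library are not drawn.

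Over all 19 pairs of measured members within 9 families, the AEW over Water quotient of their count ratio had an interval that excluded 1 for 10 and included 1 for 9. Those of the Ier and Btg families and of Egr1 with Egr3 were among the 9. These pairwise values do not depend on how the libraries were scaled. Intervals that exclude 1 were common: for single genes they lay below 1 for 28.9% and above 1 for 32% of all measured genes. Pairs of other genes were not computed and pairs within a family share genes, so the tally describes these pairs only.

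The windows before the start were searched for all members. The set of RefSeq windows used here held one or more for 28 of the 34 members. The other 6, Fosl1, Egr1, Egr3, Arc, Ier2 and Sik1, were absent from that set, which does not mean that RefSeq lacks them. At least 1 CRE core was found for 18 of the 28 genes (64.3%), against 19.8% of all genes, and the full CRE for 4 (14.3%), against 1.77%. At least 4 cores were found for 3 members, and these were the Nr4a genes. The Egr site GCGNGGGCG was found for 10 members (35.7%), against 5.33% of all genes, the CArG box of SRF for 2 (7.14%), against 1.62%, and TATAAA for 6 (21.4%), against 14.3%. The AP-1 site TGANTCA was found for 1 (3.57%), against 7.82%, and the NBRE of Nr4a receptors, AAAGGTCA, for 0, against 1.55%. Both strands were searched, a full CRE contains 2 overlapping cores, and a gene with several windows counted once. Sites outside the 250 bases, and any site of the 6 genes without a window, were not counted. The shares therefore do not rank CREB against SRF for the list. The RefSeq start is not always the GENCODE start: the windows of Nr4a1 and Fosl2 lie inside the gene spans given above. Some windows of Csrnp1 do too, and those of Nr4a3, Fosb and Klf2 run into the spans of these genes. The Nr4a3 core nearest to the RefSeq start lies inside its GENCODE span. Of the 7 members called lower, 6 held at least 1 core, all but Fosl2, and of the 18 measured members with a window that were called neither, 9 did. This tally was made after the values were seen, and no link between cores and ratios was tested.

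**Figure D4:**
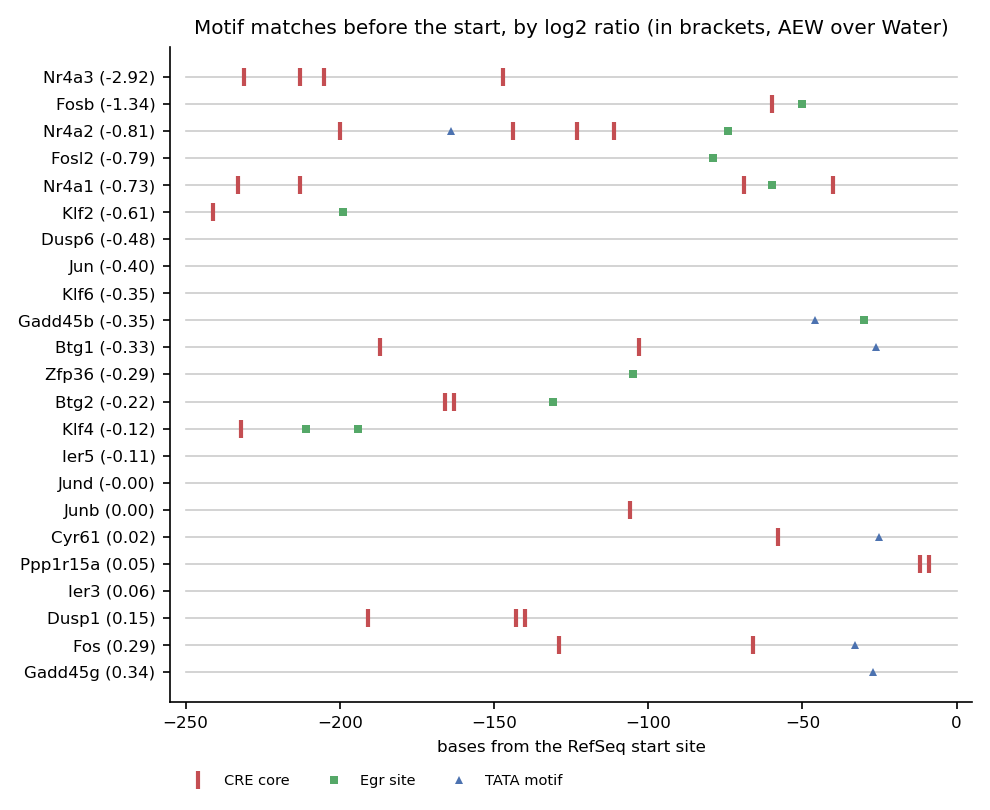
Positions of CRE cores (red bars), Egr sites (green squares) and TATA motifs (blue triangles) in the 250 bases before the RefSeq start (x axis) of measured members with a single window, from the lowest ratio (top) to the highest (bottom). The log2 ratio of AEW over Water is in brackets. The Nr4a genes have 4 red bars each, and Dusp1 and Fos, near the bottom, have 3 and 2.

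Genes that act upstream of this response were called in both directions. Of 33 measured regulators of the CREB, SRF, ERK and calcium kinase pathways, 4 were lower and 4 higher (12.1% each, against 14.9% and 17.3% of all measured genes), with a median log2 ratio of -0.03. Srf had 881 counts in AEW and 550 in Water, a ratio of 0.979 (0.879 to 1.09), and Creb1 had 1031 counts in AEW and 804 in Water, a ratio of 0.783 (0.714 to 0.860). Rps6ka5, the kinase MSK1 that phosphorylates CREB and histone H3, was lower with 36 counts in AEW and 64 in Water, a ratio of 0.344 (0.222 to 0.525). Elk3, a partner of SRF, was lower with 78 counts in AEW and 111 in Water. The kinases Camk2a, at a ratio of 2.50 (2.27 to 2.77), and Rps6ka2, at 1.86 (1.58 to 2.20), were higher.

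Relatives of the members that are not on the list moved in both directions (median -0.12). Of 32 measured, 8 were lower and 4 higher (25% and 12.5%, against 14.9% and 17.3% of all measured genes). Atf3, a partner of Jun in injured neurons, had 122 counts (8.23 scaled CPM) in AEW and 345 counts (38.1 scaled CPM) in Water, a ratio of 0.216 (0.174 to 0.266). Ctgf, a relative of Cyr61, had a ratio of 0.434 (0.391 to 0.482). Klf7, a factor of sensory neuron development, and Dusp8 were higher, at ratios of 2.35 (2.17 to 2.54) and 2.36 (1.94 to 2.88). Effector genes that follow activity in neurons held 4 higher and 2 lower genes among 18 measured (22.2% and 11.1%, median 0.15). Vgf, a secreted neuropeptide precursor, was 2.27 times (2.05 to 2.53) the Water level and the kinase gene Plk3 5.04 times (2.99 to 9.08), with 132 counts in AEW and 16 in Water. Inhba, an activin subunit, at 0.429 (0.250 to 0.728), and the clock gene Per1, at 0.512 (0.434 to 0.604), were lower.

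Other stress and signalling lists had different shares of calls, next to 14.9% lower and 17.3% higher among all measured genes. Of 12 heat shock genes, 0 were lower and 2 higher (median 0.35), and the 16.7% higher is close to the all-gene share. Hsp90ab1 had a ratio of 1.74 (1.71 to 1.76) and Dnajb1 of 0.776 (0.704 to 0.856). Of 13 glucocorticoid-induced genes, 4 were lower and 0 higher (median -0.44), with Per1 and the metallothionein Mt1 at 0.591 (0.568 to 0.615) the lowest. Of 13 nerve injury genes, 10 were lower and 0 higher (median -0.97). Of 12 NF-kB and inflammatory early genes, 5 were lower and 1 higher (median -0.60), with the adhesion gene Icam1 at 0.393 (0.283 to 0.542) and Bcl3 at 1.91 (1.36 to 2.73).

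**Figure D5:**
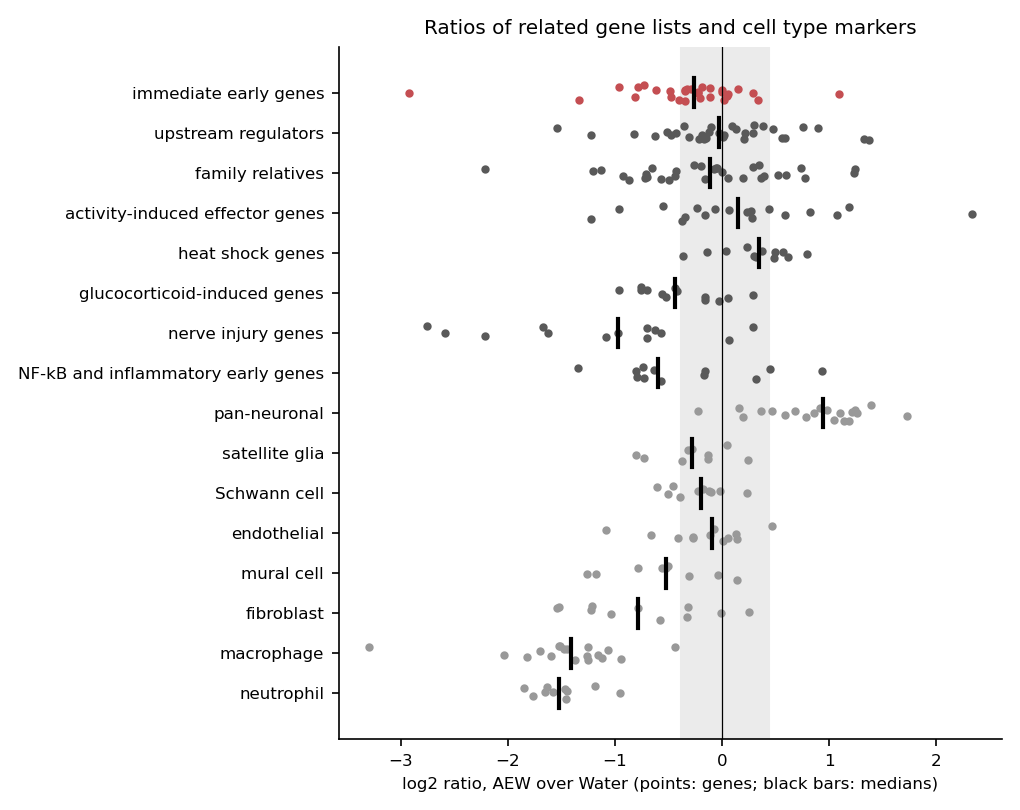
Log2 ratio of AEW over Water (x axis) for single genes (points) of the immediate early genes (red), 7 related lists (dark grey) and 8 marker lists (light grey), with medians as black bars and the middle 50% of all measured genes as a grey band. The immediate early genes have their median at -0.26, between those of nerve injury genes at -0.97 and pan-neuronal markers at 0.94. Muscle, red blood cell, and epidermis and hair markers are not drawn.

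The ratios of the members lay beside large differences in the markers of the cells that can express them. Of all measured genes, 14.9% were lower and 17.3% higher. Pan-neuronal markers were higher in 14 of 20 and lower in 0 (median 0.94), with 1.64% of counts in AEW and 0.965% in Water. Macrophage markers were lower in 17 of 18 (median -1.41), with 0.0384% of counts in AEW and 0.0958% in Water, and neutrophil markers in 10 of 10 (median -1.52). Satellite glia markers were lower in 2 of 9 (median -0.28), Schwann cell markers in 1 of 10 (median -0.20), endothelial markers in 2 of 12 (median -0.10), mural cell markers in 3 of 9 (median -0.52) and fibroblast markers in 6 of 11 (median -0.79). Epidermis and hair markers, from cells outside the ganglion, were higher in 14 of 14, with 0.116% of counts in AEW and 0.00392% in Water, and Krt5 and Krt14 had 1 count each in Water. Skeletal muscle markers were lower in 8 of 12 (median -1.21) and red blood cell markers in 6 of 7 (median -0.75). In both of these lists 0 were higher. No marker of the lists named here was at 0 in both libraries. Scaled on the pan-neuronal markers, which shifted the all-gene median log2 ratio by -0.67, 26 of 30 members were lower, against 51.4% of all measured genes, and 0 were higher, against 4.42%. On that scale Fos had a log2 ratio of -0.38, Dusp1 of -0.52 and Gadd45g of -0.33, so the ratios of Fos, Dusp1 and Gadd45g, above 1 with TMM, were below 1 there, and Arc was at 0.42. The part of these cell types in the ratios of the immediate early genes was not tested.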

How the data were processed

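Ganglion RNA was sequenced as 1 AEW and 1 Water library. Per the labels' protocols, Trizol RNA (500 ng a library) went into LEXOGEN Quant-Seq libraries. The authors deposited raw counts for each gene symbol, whole numbers without normalization. Bowtie2, bedtools and mm10 are named in the submitters' processing notes. Their versions, the annotation, strand use, and how reads with several matches or duplicates were treated: not given in the sources used here.

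From the deposited counts, TMM factors (1.03 for AEW and 0.970 for Water) were computed with edgeR 4.0.16 in R 4.3.3, and ratios with exact Clopper-Pearson intervals with scipy 1.17.1. No p-value was computed. A total of 35 symbols on 79 rows occurred more than once and were left out of calls but kept in totals. Intervals and the floor of 3 counts cover counting error only, since each group is 1 library. They take each counted read as a separate molecule, and the treatment of duplicates is not given. The calling step was run on simulated counts that held counting error only. Such a check cannot speak to differences between animals or library preparations. The members, lists and tests were chosen with earlier results of these data known. All 34 members are named. From other lists, the 2 genes with the highest lower bound and the 2 with the lowest upper bound qualify at 50 or more summed counts, and always Rbfox3, Tubb3, Uchl1, Snap25, Srf, Creb1 and Atf3, and not all of these are printed. Cx3cr1 also overlaps a member. Coordinates and transcript GC came from GENCODE M21 (GRCm38, the assembly of mm10) and promoter windows from RefSeq (GRCm38.p6). Alternatives were size factors of DESeq2 1.42.0, scaling on the total count, the upper quartile or pan-neuronal markers, totals without ribosomal, haemoglobin and keratin genes, other count minimums, thinned AEW counts, other call rules and corrections for GC content.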

Additional observations from a re-analysis of the deposited data

How the results depend on the processing

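Of the 13 alternatives, 12 were planned and the GC correction on the last 500 bases was chosen after seeing the data. Nr4a3 was called lower under all 13 (log2 ratio -3.59 to -2.83) and Fosb under 12. The 7 calls became 26 with pan-neuronal scaling (86.7% of members, against 51.4% of all measured genes) and 2 at 2-fold (6.67%, against 6.85%). They became 4 when the interval had to exclude 1.5-fold (13.3%, against 7.21%) and 1 with the deviation limit (3.33%, against 0.491%). The 0 higher calls became 1, Arc, under total count scaling, where 20.4% of all measured genes were higher. The member median of -0.26 was -0.17 with total count scaling, -0.93 with pan-neuronal scaling and -0.32 with thinned AEW counts. It was -0.34 with the whole-transcript GC correction and -0.20 with that on the last 500 bases, which also left Nr4a2 uncalled. Relative to the median of all measured genes, the member median lay at -0.29 with TMM, total count and pan-neuronal scaling. A scaling shifts every gene alike, so this distance could not differ between them and is no check of the result. That distance was -0.349 with thinned counts, and -0.375 and -0.236 with the 2 GC corrections. Klf2 was not called under 5 alternatives, and Ier2 and Gadd45b were each called lower under 1 GC correction. No called member turned direction. No paired analysis was possible because each group is 1 library. Depth limits Arc, Sik1, Gadd45b and Fosl1, and the members with 0 counts.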
